A study of Homo sapiens with 12 samples.

Results

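The 10 genes described here act on the matrix around cells. FN1 encodes fibronectin, a matrix glycoprotein to which cells attach. MMP1, MMP2, MMP3, MMP7 and MMP14 encode matrix metalloproteinases, TIMP1, TIMP2 and TIMP3 their tissue inhibitors, and PLAU the serine protease urokinase. They were chosen by name, with earlier results of these data known. Every probe set annotated to 1 of these symbols alone was taken, 22 in all, and a gene's main value came from whichever of its probe sets was brightest on average across the 12 arrays. All 10 genes had a value, out of 11963 genes measured this way.

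Matrix metalloproteinases are zinc proteases made as inactive precursors, and TIMPs block their active sites by binding them. MMP1 cuts fibrillar collagen, MMP3 and MMP7 cut a wide range of matrix proteins, and MMP14, which is anchored in the cell membrane, activates the precursor of MMP2 together with TIMP2. Urokinase converts plasminogen to plasmin, which cuts fibronectin and activates several metalloproteinase precursors, and in clear cell renal carcinoma VHL is also known for binding fibronectin and for its part in fibronectin matrix assembly.

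RNA of the renal cell carcinoma line RCC4, which lacks functional VHL, was measured on 12 single-colour arrays, 3 in each of 4 groups. VHL recognises the substrates of a ubiquitin ligase, and through it the hypoxia-inducible transcription factors (HIF) are broken down when oxygen is present. The groups were cells with VHL put back (VHL) in cystine-deprived medium, VHL cells in control medium, cells with the empty vector (Vec) in cystine-deprived medium, and Vec cells in control medium, each for 6 h. Cystine is 2 cysteines joined by a disulfide, and cultured cells import it as their cysteine source. Both media were DMEM with 10% serum and antibiotics. The labels name dialysed serum only for the deprived medium, so a change of serum cannot be told apart from the loss of cystine. They give 1 Vec and 1 VHL line without saying whether either is a clone, so the effect of VHL and other differences between these 2 lines cannot be told apart. The labels call the replicates biological without naming separate cultures, so the p-values measure the spread between these samples, which may be technical. Values are log2, and a difference of 1 is a doubling of signal.

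The deposited values ran from 3.26 to 14.79, with array medians between 7.12 and 7.18. The only probe set for VHL was dim, from 5.80 to 6.07 over the 12 arrays, under the mark of 6.46 that is the 40th percentile of all probe set means. It missed the threshold between VHL and Vec cells in control medium (difference 0.14 ± 0.05, limma adjusted p = 0.0532, and 0.0237, 0.0445 and 0.041 with median centring, averaged probe sets and the replicate block). Its place in the transcript is not known, so it does not check the labels. EGLN3, a HIF target, lay between 5.44 and 5.59 in VHL deprived and between 5.39 and 5.58 in VHL control cells, against 8.59 to 8.68 in Vec deprived and 8.66 to 8.74 in Vec control cells. VEGFA, another HIF target, had means of 10.57 and 9.82 in VHL deprived and VHL control cells, against 11.43 and 11.16 in Vec deprived and Vec control cells. CHAC1, induced when amino acids run short, lay between 9.45 and 9.59 in VHL deprived against 6.89 to 7.09 in VHL control cells, and between 10.08 and 10.35 in Vec deprived against 7.35 to 7.73 in Vec control cells. ASNS, another gene of that response, had means of 11.57 in VHL deprived against 10.03 in VHL control cells, and 11.58 in Vec deprived against 10.10 in Vec control cells. All 8 markers of kidney epithelium and its carcinomas were above the mark, including PAX8 and CDH2, as were 1 of 4 blood, 0 of 4 endothelial and 1 of 7 fibroblast markers. The exceptions were HBB at a mean of 6.98 and COL1A1 at 8.04. The summed kidney list lay between 14.99 and 15.04 in VHL deprived, 14.97 and 14.99 in VHL control, 15.18 and 15.21 in Vec deprived and 15.15 and 15.19 in Vec control cells. This is a sum of linear signals, in which VIM is the brightest, at a mean of 14.23. In control medium KRT8, KRT19 and VIM were called lower in VHL cells, and PAX8, PAX2, KRT18, CDH2 and CDH6 were not called. The part of these markers in the results was not tested.

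Between VHL and Vec cells, the genes split in both media. FN1, MMP1, MMP7, MMP3 and TIMP2 were higher in VHL than in Vec cells, and PLAU, TIMP1, MMP14 and MMP2 were lower. A gene is called when its limma p-value, adjusted by Benjamini-Hochberg over all 11963 genes, is under 0.05. Whether the arrays of compared groups overlap is also given. The share of all genes whose groups do not overlap was not counted, so separation alone is not read as a change. In control medium 9 of 10 genes were called, 5 higher and 4 lower, beside 46.1% of all genes called, 23.1% higher and 23.0% lower. In deprived medium the same counts of 9, 5 and 4 stood beside 47.2% called, 24.2% higher and 23.0% lower. The median size of the difference over the 10 genes was 1.15 in control medium and 1.01 in deprived medium, against 0.15 and 0.16 over all genes. These sizes carry no test, because the 10 genes were chosen with earlier results of these data known. The median signed difference was 0.16 in deprived and 0.13 in control medium, against 0.003 and -0.001 over all genes. Bulk RNA cannot tell apart a change in the RNA of each cell from a change in the share of cells that make it.

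**Figure D1:**
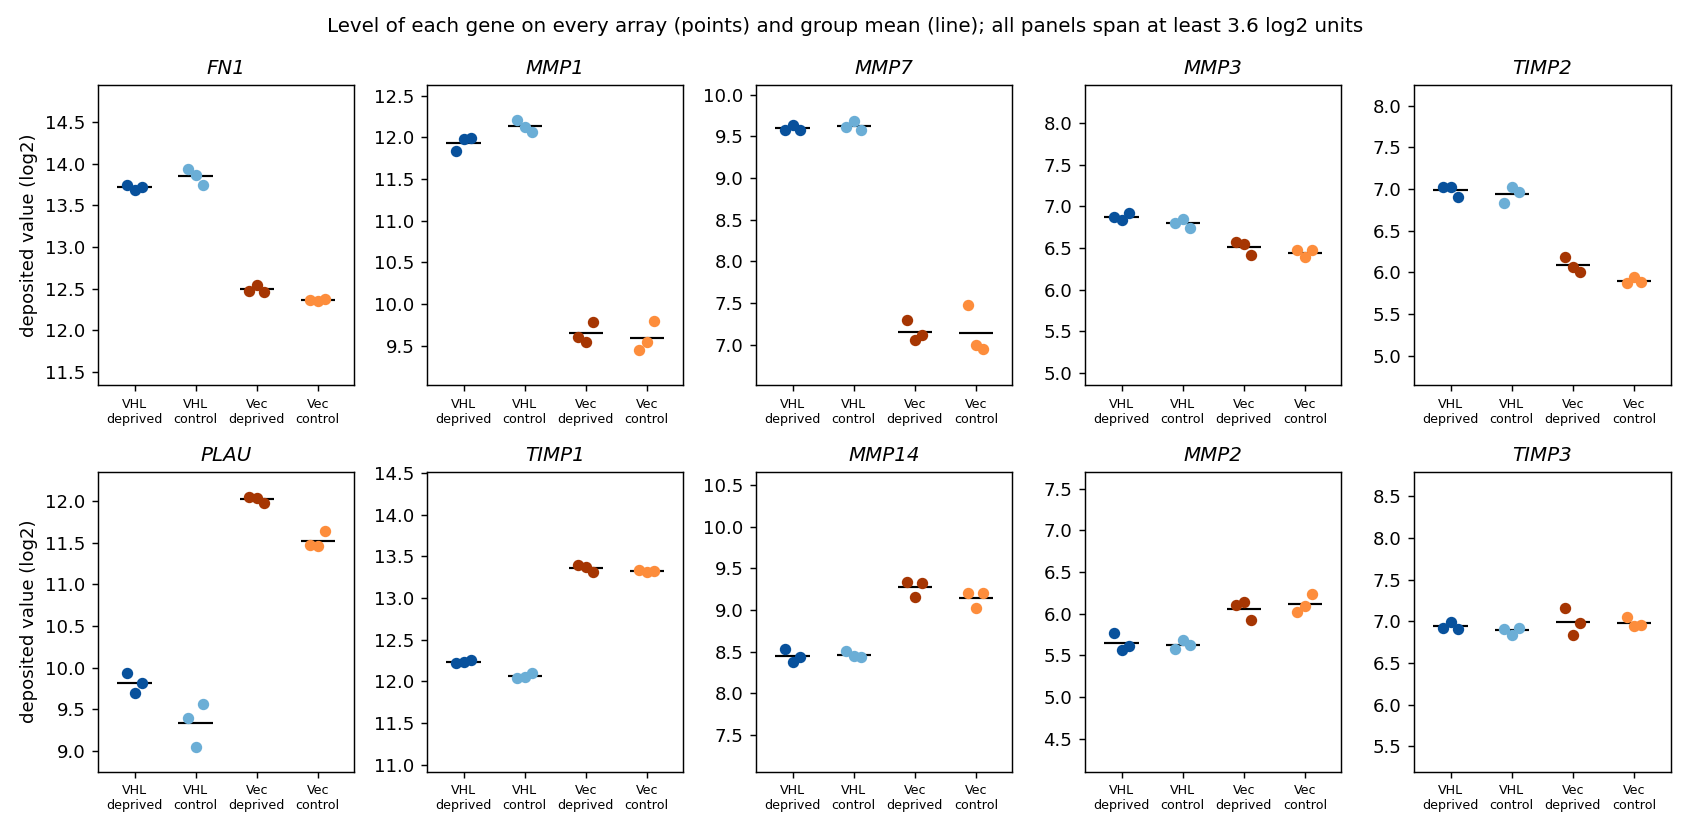
Each panel plots 1 gene, with the deposited log2 value on the vertical axis and the 4 groups along the horizontal axis; points are the 3 arrays of a group and the line is their mean. FN1, MMP1, MMP7, MMP3 and TIMP2 lie higher in both VHL groups, PLAU, TIMP1, MMP14 and MMP2 lie lower there, and TIMP3 group means lie between 6.89 and 6.99.

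Fibronectin was among the brightest transcripts of the array, at the 99.0th percentile of gene means. FN1 read 13.74, 13.69 and 13.72 in VHL deprived cells, against 12.47, 12.55 and 12.46 in Vec deprived cells. The control medium arrays read 13.94, 13.86 and 13.74 in VHL cells, against 12.37, 12.35 and 12.38 in Vec cells. Every VHL array was above every Vec array. The difference was 1.23 ± 0.05 in deprived medium, or 2.34-fold (limma adjusted p = 7.88e-10), and 1.48 ± 0.05 in control medium, or 2.79-fold (limma adjusted p = 1.34e-10); a value after ± is the fitted standard error, except where SD is written. All 6 FN1 probe sets were called higher in each medium, by 0.38 to 1.49 in deprived and by 0.38 to 1.63 in control medium. The smallest difference came from the dimmest of them, with a mean of 4.60, which is also the only one left without probe sets that may bind several transcripts.

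The promoter of FN1 is shown because it carries the FN1 start with a cAMP response element, the TGACGTCA site bound by CREB and ATF factors. RefSeq (GRCh38.p14) places it at chr2:215436019-215436318, minus strand, from 250 bases before to 50 after the gene's start. Capitals mark every match, on either strand, to 4 patterns: that site, the AP-1 site TGANTCA, and the hypoxia response element cores ACGTG and GCGTG, which may overlap each other.
FN1: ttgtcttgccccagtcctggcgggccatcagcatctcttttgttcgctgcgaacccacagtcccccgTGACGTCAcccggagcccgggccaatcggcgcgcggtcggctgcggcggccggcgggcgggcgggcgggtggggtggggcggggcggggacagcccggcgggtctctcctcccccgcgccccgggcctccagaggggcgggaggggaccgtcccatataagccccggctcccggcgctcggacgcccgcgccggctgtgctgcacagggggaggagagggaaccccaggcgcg
The match begins at position -183 from the start, and 1.85% of 35116 RefSeq promoters of 300 bases hold one. These letters describe the window and show no binding.

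Interstitial collagenase differed more. MMP1 read 11.84, 11.98 and 11.99 in VHL deprived cells, against 9.61, 9.55 and 9.79 in Vec deprived cells. Control medium gave 12.21, 12.12 and 12.07 in VHL cells, against 9.45, 9.55 and 9.80 in Vec cells. The groups were more than 2 units apart and did not overlap. The difference was 2.29 ± 0.09 in deprived medium, 4.89-fold (limma adjusted p = 2.22e-10), and 2.53 ± 0.09 in control medium, 5.78-fold (limma adjusted p = 7.91e-11).

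MMP7, or matrilysin, a small metalloproteinase made mainly by epithelial cells, was close behind. It read 9.58, 9.63 and 9.57 in VHL deprived cells, against 7.30, 7.06 and 7.11 in Vec deprived cells. In control medium the VHL arrays read 9.61, 9.68 and 9.57 and the Vec arrays 7.47, 6.99 and 6.95. The Vec control group was the most spread, with an SD of 0.29 (n = 3), because 1 array stood above the other two, yet it stayed far below every VHL array. The difference was 2.44 ± 0.11 in deprived medium, 5.41-fold (limma adjusted p = 1.41e-09), and 2.48 ± 0.11 in control medium, 5.59-fold (limma adjusted p = 1.25e-09).

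The MMP7 promoter is shown for its AP-1 match (GRCh38.p14, chr11:102530698-102530997, minus strand), with capitals as above.
MMP7: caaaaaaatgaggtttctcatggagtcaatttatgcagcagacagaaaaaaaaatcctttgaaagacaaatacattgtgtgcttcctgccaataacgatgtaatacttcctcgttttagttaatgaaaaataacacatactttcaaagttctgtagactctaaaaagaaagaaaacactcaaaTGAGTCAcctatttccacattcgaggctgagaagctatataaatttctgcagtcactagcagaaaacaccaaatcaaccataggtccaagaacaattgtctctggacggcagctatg
The AP-1 match TGAGTCA begins at position -67, and 7.71% of the RefSeq promoters hold the pattern. A TATAAA box, left in lower case, begins at -30 and occurs in 11.5% of promoters. The window held no hypoxia core, and the C/EBP-ATF response element TGATGNAA, found in 3.62% of promoters, matched in none of the member promoters searched. Promoters were matched for 6 of the 10 genes, and MMP1, MMP2, MMP3 and TIMP2 were not among them.

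MMP3, or stromelysin 1, shifted little. It read 6.87, 6.84 and 6.92 in VHL deprived cells, against 6.57, 6.55 and 6.42 in Vec deprived cells, and 6.80, 6.85 and 6.74 in VHL control cells, against 6.47, 6.39 and 6.47 in Vec control cells. The groups did not overlap, and the difference was 0.37 ± 0.05 in deprived (1.29-fold, limma adjusted p = 6.28e-05) and 0.35 ± 0.05 in control medium (1.28-fold, limma adjusted p = 8.40e-05). The Vec control mean of 6.45 was at the level of dim probe sets, so background signal limits this fold.

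MMP1, MMP3 and MMP7 stand in a run of 9 metalloproteinase genes on chromosome 11, and all 9 were measured. In RefSeq order these are MMP7, MMP20, MMP27, MMP8, MMP10, MMP1, MMP3, MMP12 and MMP13. The 6 genes that are not among the 10 were all dim, with means from 3.90 to 6.27, and are given here for their position, after their values were seen. MMP10, or stromelysin 2, was higher in VHL cells, by 0.36 ± 0.08 in deprived (limma adjusted p = 0.00301) and 0.63 ± 0.08 in control medium (limma adjusted p = 3.16e-05). MMP20 was called in deprived medium, at 0.18 ± 0.07 (limma adjusted p = 0.0408), but not in control medium, at 0.11 ± 0.07 (limma adjusted p = 0.212). The other 4 were called in neither medium, at differences from -0.07 to 0.09, and for probe sets this dim that does not show equal expression.

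**Figure D2:**
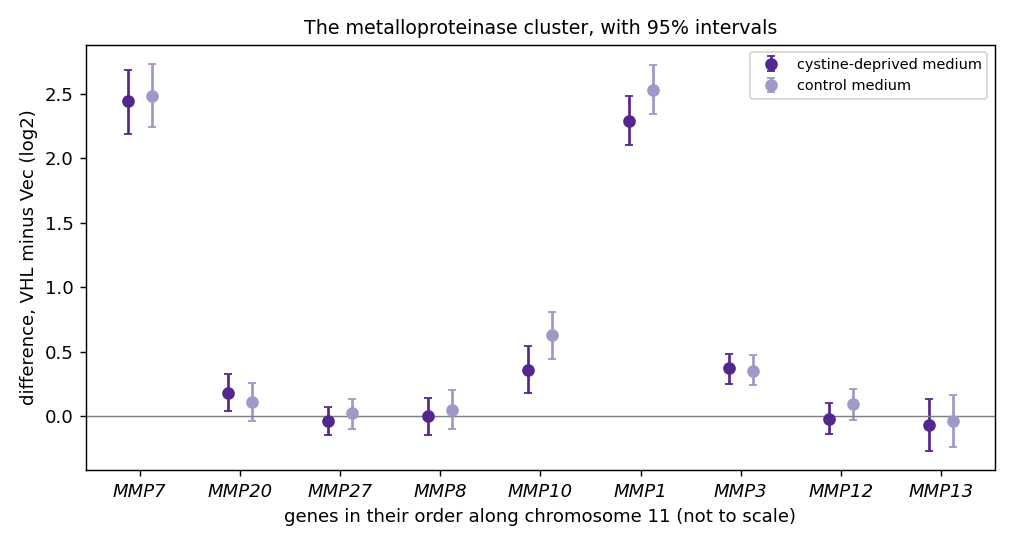
The horizontal axis lists the 9 metalloproteinase genes of the chromosome 11 run in their order, not to scale, and the vertical axis gives the log2 difference of VHL minus Vec cells with its 95% interval in each medium. MMP7 and MMP1 stand between 2.29 and 2.53, apart from MMP10, MMP3 and the dim genes between and beside them.

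The 2 other metalloproteinases went the other way. MMP14, the membrane-anchored collagenase, read 8.53, 8.38 and 8.44 in VHL deprived cells, against 9.34, 9.16 and 9.33 in Vec deprived cells. Control medium gave 8.51, 8.45 and 8.44 in VHL cells, against 9.20, 9.03 and 9.21 in Vec cells. All VHL arrays lay below all Vec arrays. The difference was -0.83 ± 0.07 in deprived (1.78-fold lower, limma adjusted p = 2.61e-07) and -0.68 ± 0.07 in control medium (1.60-fold lower, limma adjusted p = 1.78e-06). All 4 MMP14 probe sets were called lower, from -0.86 to -0.27 in deprived and from -0.95 to -0.35 in control medium.

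MMP2, or gelatinase A, which MMP14 activates, was dim, with a mean of 5.86 over the 12 arrays. It read 5.77, 5.57 and 5.61 in VHL deprived cells, against 6.11, 6.14 and 5.93 in Vec deprived cells. Its values in control medium were 5.58, 5.69 and 5.62 in VHL cells, against 6.02, 6.09 and 6.24 in Vec cells. The VHL and Vec arrays did not overlap, and the difference was -0.41 ± 0.08 in deprived (limma adjusted p = 5.38e-04) and -0.48 ± 0.08 in control medium (limma adjusted p = 1.29e-04). At this brightness the size of the change is limited by background signal.

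The inhibitors did not move as a family. TIMP1, a secreted inhibitor of most soluble metalloproteinases, was very bright and lower in VHL cells. It read 12.22, 12.23 and 12.26 in VHL deprived cells, against 13.39, 13.37 and 13.31 in Vec deprived cells. Control medium gave 12.04, 12.05 and 12.10 in VHL cells, against 13.34, 13.31 and 13.32 in Vec cells. The SD within a group was at most 0.04 (n = 3) and the lines were more than 1 unit apart. The difference was -1.12 ± 0.04 in deprived (2.17-fold lower, limma adjusted p = 2.49e-10) and -1.26 ± 0.04 in control medium (2.39-fold lower, limma adjusted p = 7.68e-11).

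The TIMP1 promoter is shown because it holds both forms of the HIF-binding core (GRCh38.p14, chrX:47582186-47582485, plus strand).
TIMP1: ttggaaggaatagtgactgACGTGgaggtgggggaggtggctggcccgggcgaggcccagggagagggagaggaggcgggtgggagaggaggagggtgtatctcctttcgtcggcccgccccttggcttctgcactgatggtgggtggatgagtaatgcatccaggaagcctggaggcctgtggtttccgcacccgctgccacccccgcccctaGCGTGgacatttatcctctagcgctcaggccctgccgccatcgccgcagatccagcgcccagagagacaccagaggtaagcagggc
ACGTG begins at -231 and GCGTG at -36. Such short patterns are common, and 21.4% and 36.5% of the RefSeq promoters hold ACGTG and GCGTG. MMP14 had ACGTG at -96, and TIMP3 had GCGTG at -213. Whether these matches bear on any difference between VHL and Vec cells was not tested.

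TIMP2, which binds MMP14 and with it activates MMP2, was higher in VHL cells. It read 7.03, 7.03 and 6.90 in VHL deprived cells, against 6.19, 6.06 and 6.01 in Vec deprived cells. In control medium it read 6.83, 7.03 and 6.97 in VHL cells, against 5.87, 5.94 and 5.89 in Vec cells. The lines did not overlap, and the difference was 0.90 ± 0.06 in deprived (1.87-fold, limma adjusted p = 7.84e-08) and 1.04 ± 0.06 in control medium (2.06-fold, limma adjusted p = 1.98e-08). The Vec means of 6.09 and 5.90 lie under the dim mark, so background signal limits these folds.

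TIMP3, the inhibitor that binds to the matrix itself, was the gene not called. It read 6.92, 6.99 and 6.91 in VHL deprived cells, against 7.16, 6.83 and 6.98 in Vec deprived cells. In control medium it read 6.91, 6.84 and 6.92 in VHL cells, against 7.05, 6.94 and 6.96 in Vec cells. The difference was -0.05 in deprived medium (95% interval -0.20 to 0.11, limma adjusted p = 0.622) and -0.09 in control medium (95% interval -0.25 to 0.06, limma adjusted p = 0.327). The lines overlapped in deprived medium and not in control medium. None of its 4 probe sets was called in either medium, and 3 of the 4 were dim, with means of 6.28, 5.04 and 3.76.

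Of the 10 genes, urokinase was the furthest lower in VHL cells. PLAU read 9.94, 9.69 and 9.82 in VHL deprived cells, against 12.05, 12.04 and 11.98 in Vec deprived cells. In control medium it read 9.40, 9.05 and 9.56 in VHL cells, against 11.47, 11.46 and 11.64 in Vec cells. Every VHL array lay below every Vec array. The difference was -2.20 ± 0.11 in deprived (4.61-fold lower, limma adjusted p = 2.20e-09) and -2.18 ± 0.11 in control medium (4.54-fold lower, limma adjusted p = 2.35e-09). Its other probe set gave -2.33 and -2.40, both called.

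RefSeq lists 2 starts for PLAU, and the window at the second is shown for the GCGTG core on its opposite strand (GRCh38.p14, chr10:73910882-73911181, plus strand).
PLAU: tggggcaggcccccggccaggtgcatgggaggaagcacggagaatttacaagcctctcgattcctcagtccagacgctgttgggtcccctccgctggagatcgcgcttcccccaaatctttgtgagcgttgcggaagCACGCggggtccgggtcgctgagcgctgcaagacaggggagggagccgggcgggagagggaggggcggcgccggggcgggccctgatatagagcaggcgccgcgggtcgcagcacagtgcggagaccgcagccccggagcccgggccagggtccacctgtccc
The match begins at -113, and 36.5% of the RefSeq promoters hold GCGTG. Its part in the difference was not tested. The window at the other start held none of the 4 capitalised patterns.

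**Figure D3:**
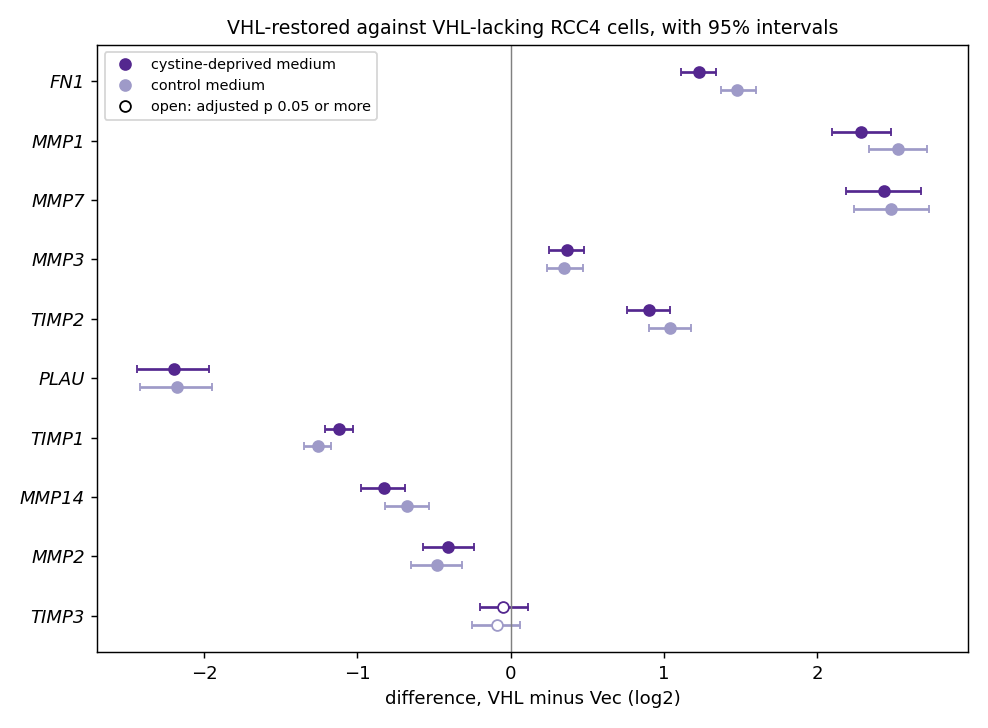
The horizontal axis is the log2 difference of VHL minus Vec cells, with 95% intervals from limma, for the 10 genes in deprived and control medium; open points were not called. PLAU lies near -2.2 and MMP1 and MMP7 between 2.29 and 2.53, TIMP1 and TIMP2 fall on opposite sides of 0, and TIMP3 spans 0.

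**Figure D4:**
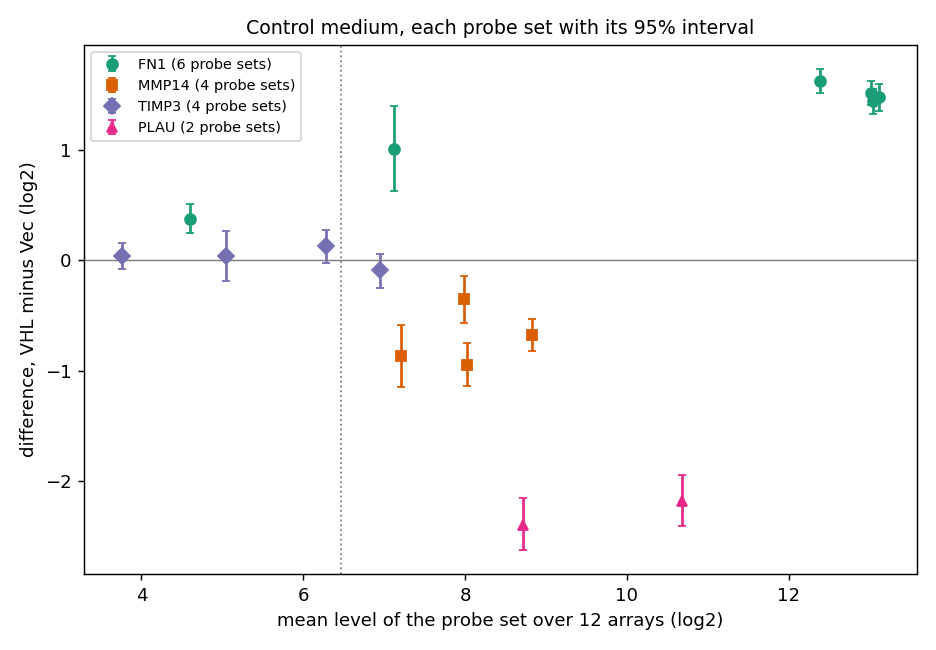
For the 4 genes with several probe sets, the log2 difference of VHL minus Vec cells in control medium, with its 95% interval, is plotted against the mean level of the probe set; the dotted line is the dim mark at 6.46. Probe sets of a gene share a direction for FN1, MMP14 and PLAU, the dimmest FN1 probe set gives 0.38, and those of TIMP3 lie between -0.09 and 0.13.

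On cystine deprivation, calls were fewer than between VHL and Vec cells, both among these genes and over all genes. In VHL cells 2 of 10 were called, PLAU and TIMP1, both higher, beside 11.6% of all genes called, 6.16% higher and 5.48% lower. With each array centred on its median, all calls in VHL cells split into 550 higher and 873 lower, against 737 and 655 as deposited. In Vec cells PLAU was the 1 gene of 10 called, beside 4.18% of all genes, 2.11% higher and 2.06% lower. The median size of change over the 10 genes was 0.06 in each line, against 0.08 over all genes in VHL cells and 0.06 in Vec cells. The deprivation and VHL comparisons share arrays, so they are not independent of each other.

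PLAU rose in both lines. In VHL cells it read 9.94, 9.69 and 9.82 after deprivation, against 9.40, 9.05 and 9.56 in control medium. In Vec cells it read 12.05, 12.04 and 11.98 after deprivation, against 11.47, 11.46 and 11.64. Groups did not overlap in either line, and the 4 groups ran without overlap from VHL control through VHL deprived and Vec control to Vec deprived. The rise was 0.48 ± 0.11 in VHL cells (1.39-fold, limma adjusted p = 0.013) and 0.50 ± 0.11 in Vec cells (1.41-fold, limma adjusted p = 0.0212). The difference between these rises was -0.02, with a 95% interval from -0.35 to 0.31 (limma adjusted p = 0.975). The other PLAU probe set rose by 0.55 in VHL and 0.48 in Vec cells, both called. In Vec cells the call needed every array other than Vec control replicate 3: leaving out each of those 5 in turn ended it (adjusted p 0.0561 to 0.0841, over all alternatives 0.00353 to 0.0841). In VHL cells it was lost without VHL deprived replicate 1 (0.0547) and when only the VHL groups were fitted (0.0581), over a range from 0.00422 to 0.0581.

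TIMP1 rose slightly in VHL cells, to 12.22, 12.23 and 12.26 after deprivation, against 12.04, 12.05 and 12.10 in control medium. The groups did not overlap and the rise was 0.17 ± 0.04, or 1.13-fold (limma adjusted p = 0.0219). In Vec cells TIMP1 gave 0.03 ± 0.04 (limma adjusted p = 0.768). The difference between the lines was 0.14 ± 0.06 and missed the threshold (limma adjusted p = 0.481). The call in VHL cells was lost without VHL control replicate 1 (adjusted p = 0.0765) or 2 (0.0707), without VHL deprived replicate 2 (0.0543) or 3 (0.0721), and when only the VHL groups were fitted (0.0661), over a range from 0.000693 to 0.0765.

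The other 8 genes were called in neither line. FN1 gave -0.13 ± 0.05 in VHL cells (limma adjusted p = 0.135) and 0.13 ± 0.05 in Vec cells (limma adjusted p = 0.25), with no overlap between media in either line, although the closest VHL arrays both round to 13.74. In VHL cells FN1 was called without VHL control replicate 3 (-0.18, adjusted p = 0.044) and with a variance trend and robust moderation together (0.0307), over a range from 0.0307 to 0.822, and its 6 probe sets ran from -0.13 to 0.15. The probe set at 0.15 did not overlap between media either, in the opposite direction. MMP1 gave -0.19 ± 0.09 in VHL cells, where its media did not overlap (limma adjusted p = 0.171), and 0.05 ± 0.09 in Vec cells (limma adjusted p = 0.854). TIMP2 gave 0.04 ± 0.06 in VHL cells (limma adjusted p = 0.721) and 0.19 ± 0.06 in Vec cells (limma adjusted p = 0.146), where its arrays did not overlap between media. With 3 arrays in each group, unchanged genes can also separate. The share of all genes that did so was not counted, so these separations are not read as changes, and those of the called genes add no support. MMP14 gave -0.02 ± 0.07 in VHL and 0.13 ± 0.07 in Vec cells. For MMP2, MMP3, MMP7 and TIMP3 the values lay between -0.06 and 0.08 in both lines, with 95% intervals inside -0.27 to 0.26. These intervals leave room for changes of up to about that size.

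By limma, 0 of the 10 genes were called as differing between the lines in their response to deprivation, beside 0.134% of all genes. At an unadjusted p under 0.05 there were 2, FN1 and TIMP1. The share of all genes under that unadjusted threshold was not counted, so this count is not read as a result. For FN1 the difference of responses, VHL minus Vec, was -0.26 ± 0.08 (limma adjusted p = 0.302), and it was called with a variance trend and robust moderation together (0.0494), over a range from 0.0494 to 0.997.

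**Figure D5:**
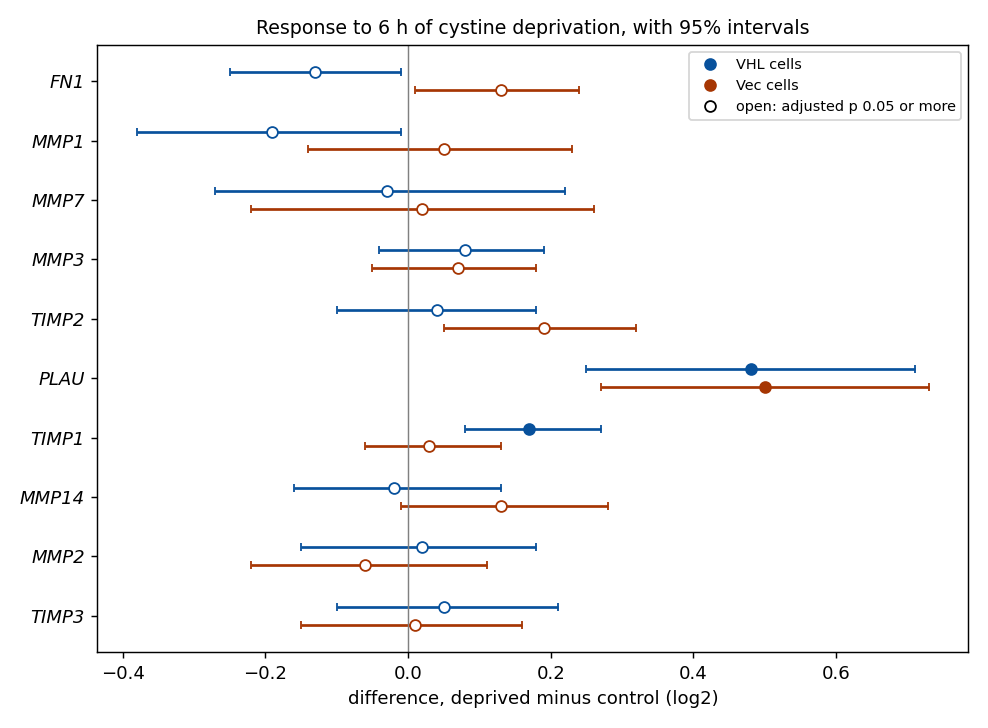
The horizontal axis is the log2 difference of deprived minus control medium after 6 h, with 95% intervals from limma, for the 10 genes in VHL and Vec cells; open points were not called. PLAU stands near 0.5 in both lines, TIMP1 is called in VHL cells at 0.17, and the other points lie between -0.19 and 0.19.

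The 3 lists of related genes are read against the shares called over all genes, which were 47.2% in deprived medium, 24.2% higher and 23.0% lower, and 46.1% in control medium, 23.1% higher and 23.0% lower. Among other metalloproteinases, sheddases and inhibitors, 7 of 34 measured genes were higher and 6 lower in VHL than in Vec cells in deprived medium, and 5 higher and 5 lower in control medium, with medians of -0.03 and 0.05; the 13 and 10 calls of 34 stand beside 47.2% and 46.1%. ADAM12, a membrane-bound metalloproteinase of the disintegrin family, differed by -2.06 ± 0.05 in deprived (limma adjusted p = 6.01e-12) and -1.85 ± 0.05 in control medium (limma adjusted p = 1.65e-11). Of its 4 probe sets, 2 and 3 were called lower. ADAM19, of the same family, differed by -1.57 ± 0.08 and -1.69 ± 0.08, with 1 of 2 probe sets called. ADAMTS3, which trims procollagen, was higher in VHL cells, by 1.48 ± 0.06 in deprived and 1.24 ± 0.06 in control medium. BSG, or basigin, an inducer of metalloproteinases, was higher by 0.67 ± 0.06 in deprived medium, and MMP15, another membrane-type enzyme, differed by -0.49 ± 0.05 in control medium. In the other medium each fell outside the up to 4 called genes named by smallest adjusted p, so its value there is not given.

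In plasminogen activation and its inhibitors, 3 of 15 measured genes were higher and 5 lower in VHL cells in deprived medium, and 3 higher and 6 lower in control medium, with medians of -0.07 and -0.06; the calls were 8 and 9 of 15, with the same shares over all genes. PLAUR, the urokinase receptor, was lower like its ligand, at 9.36 to 9.65 in VHL against 11.01 to 11.13 in Vec deprived cells, and 9.42 to 9.70 in VHL against 10.71 to 11.12 in Vec control cells. The difference was -1.60 ± 0.11 in deprived (limma adjusted p = 4.63e-08) and -1.35 ± 0.11 in control medium (limma adjusted p = 2.35e-07), and all 3 PLAUR probe sets were called lower. F3, or tissue factor, which starts coagulation, differed by -2.57 ± 0.10 in deprived and -3.19 ± 0.10 in control medium. TFPI, which inhibits tissue factor and its protease complex, differed by -0.80 ± 0.07 and -0.73 ± 0.07, though 1 of its 5 probe sets was called higher. TFPI2, an inhibitor of plasmin and other serine proteases, was higher by 0.93 ± 0.06 and 0.89 ± 0.06.

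Of 27 measured fibronectin receptors and other non-collagen matrix genes, 8 were higher and 8 lower in VHL cells in deprived medium, and 8 higher and 9 lower in control medium, with medians of 0.02 and -0.02; the calls were 16 and 17 of 27, beside the same shares. ITGA5, which forms the main fibronectin receptor with ITGB1, was lower where FN1 was higher, at 9.14 to 9.32 in VHL against 10.31 to 10.43 in Vec deprived cells, and 9.09 to 9.24 in VHL against 10.10 to 10.34 in Vec control cells. The difference was -1.17 ± 0.07 (limma adjusted p = 2.06e-08) and -1.04 ± 0.07 (limma adjusted p = 6.37e-08). ITGB1, a list member named after its values were seen, was not called, at -0.08 ± 0.07 in deprived (limma adjusted p = 0.405) and 0.02 ± 0.07 in control medium (limma adjusted p = 0.859). TGM2, a transglutaminase that cross-links fibronectin, differed by -1.26 ± 0.05 and -1.31 ± 0.05. LAMA5, a laminin chain of basement membranes, was higher by 2.90 ± 0.14 and 2.51 ± 0.14, and SDC2, a cell-surface proteoglycan, by 1.07 ± 0.06 and 0.92 ± 0.06, in deprived and control medium in that order.

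On deprivation, calls in these lists stood beside 11.6% of all genes in VHL cells and 4.18% in Vec cells. In VHL cells the first list had 0 higher and 2 lower, ADAMTS1, a secreted protease, at -0.32 ± 0.06 (limma adjusted p = 0.00343) and ADAM12 at -0.26 ± 0.05 (limma adjusted p = 0.00762). The second had 1 higher, F3 at 0.40 ± 0.10 (limma adjusted p = 0.026), and none lower, and the third 1 lower, CD44, a hyaluronan receptor, at -0.25 ± 0.05 (limma adjusted p = 0.0116). When probe sets were averaged, ADAM12 (-0.08, adjusted p = 0.395) and CD44 (-0.09, 0.396) were not called, and F3 was lost without any 1 of 4 arrays (0.059 to 0.0869). In Vec cells ADAMTS6, of the same protease family as ADAMTS1, was the 1 gene called in the 3 lists, at 0.25 ± 0.05 (limma adjusted p = 0.0194). It was lost without any 1 of 4 arrays (0.0609 to 0.0839) and with a variance trend and robust moderation together (0.0521). None of the 3 lists had a gene whose response was called as different between the lines by limma.

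For the 3 genes whose group means spanned most, the genes with the nearest patterns were taken by the root mean square difference of mean-centred log2 values over the 12 arrays. PLAU was nearest to SCG5 at 0.09, LAMB3, a laminin chain, at 0.11 and MAFF, a small MAF transcription factor, at 0.13. MMP1 was nearest to TNFSF13, a TNF-family ligand, at 0.11, CDKN1C, a cyclin-dependent kinase inhibitor, at 0.12 and C1S, a complement protease, at 0.13. MMP7 was nearest to CFI, the complement factor I protease, and RELN, the secreted protein reelin, both at 0.15, and to TNFSF13 at 0.17. LAMB3 shared with PLAU a difference of -2.24 between VHL and Vec cells in deprived and -2.23 in control medium, and changed by 0.37 on deprivation in VHL and 0.39 in Vec cells. These are likenesses of pattern over 12 arrays and carry no test.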

How the data were processed

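The deposited values are log2 expression values, for 22215 probe sets on each of 12 arrays. The unit was read from the deposited values, and whether and how the authors normalized them is not given in the sources used here. Per the labels' protocols, RNA was column-purified and biotin targets were made with the MessageAmp Premier kit. Of the probe sets, 19064 named 1 gene, 1043 several and 2108 none, and only the first kind was used. Symbols were updated through RefSeq for 19052 of them. Values were used as deposited, with no filter on low values.

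The model, with a mean for each group, was fitted with limma 3.58.1 (R 4.3.3) to the 12 arrays together, leaving 8 residual degrees of freedom (12.7 after moderation). P-values are two-sided and adjusted over 11963 genes in each of 5 comparisons. The fit was also run on simulated data with noise independent between arrays, and no result here rests on that run. The genes, lists and alternatives were chosen with earlier results of these data known. The text names the 10 genes, 5 genes that check the labels, up to 4 called members of each list and comparison by smallest adjusted p, and the 3 nearest patterns; exceptions are stated. The number of arrays limits the precision. For dim probe sets, detection calls were not used. Batches were not analysed here. Alternatives were 2 scalings, a filter on dim genes, 3 choices of probe sets, robust moderation together with a variance trend, fits to the compared groups alone, a replicate block and leaving out each array.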

Additional observations from a re-analysis of the deposited data

How the results depend on the processing

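Of the 785 values of the 10 genes under the alternatives, 770 kept their side of the threshold, 12 lost a call, 3 gained one and 0 turned sign past the threshold. In each medium the count of 9 called genes between VHL and Vec cells was 9 under both scalings and without any 1 array, and 8 without dim genes, where MMP2 is left out by construction. On deprivation, the count in VHL cells, 2 as reported, was 1 when _x_at and _s_at probe sets were dropped, which leaves out PLAU, 0 when only the VHL groups were fitted, and between 1 and 3 without 1 array. The count in Vec cells, 1 as reported, was 0 without those probe sets and between 0 and 1 without 1 array. The count of genes whose responses were called as different between the lines, 0 as reported, was 1 with a variance trend and robust moderation together. It was 0 without any 1 array. Over all genes, calls numbered 771 in VHL and 233 in Vec cells without those probe sets, among 8369 genes, against 1392 and 500 among 11963. They numbered 835 and 311 with only the compared groups fitted, and between 764 and 1302 and between 253 and 303 without 1 array. Calls between VHL and Vec cells numbered 3505 in deprived and 3427 in control medium without those probe sets, among 8369 genes. They compare with 5650 and 5520 among 11963 genes, so the smaller set of genes lowers these counts too. Calls for the difference of responses numbered 45 with a variance trend and robust moderation together, against 16. Other causes were not tested.

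The labels number the replicates 1 to 3. Residuals of arrays of equal number correlated between -0.268 and 0.235 over 18 pairs, so the number was not taken as a pairing. With it as a replicate block, the 10 genes gave 2 calls on deprivation in VHL cells, 1 in Vec cells, 0 for the difference and 9 between VHL and Vec cells in each medium, and over all genes 1326, 434, 16, 5664 in deprived and 5517 in control medium. The block changed no call among the 10 genes.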

Other observations

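Some further list members that act on these proteins are named here after their values were seen. FURIN, a protease that cuts the precursor of MMP14, had a mean of 7.40 ± 0.25 in VHL deprived against 8.30 ± 0.02 in Vec deprived cells, and 7.70 ± 0.11 in VHL control against 8.23 ± 0.09 in Vec control cells (SD, n = 3). The differences were -0.90 ± 0.10 (limma adjusted p = 5.40e-06) and -0.53 ± 0.10 (limma adjusted p = 5.39e-04), with no overlap between VHL and Vec arrays. SDC4, a cell-surface proteoglycan that binds fibronectin beside integrins, differed by -0.42 ± 0.06 in deprived (limma adjusted p = 1.08e-04) and -0.32 ± 0.06 in control medium (limma adjusted p = 0.001).

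THBS1, the matrix protein thrombospondin 1, had a difference of 0.32 ± 0.13 in deprived medium, which was not called (limma adjusted p = 0.0581), and of 0.55 ± 0.13 in control medium (limma adjusted p = 0.00297). Its 5 probe sets ranged from 0.18 to 0.95 in deprived and from 0.07 to 0.86 in control medium, with 4 of 5 called in each.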
